A study of Mus musculus with 16 samples.

Results

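The genes described here encode 10 abundant proteins that the liver secretes into blood: albumin (Alb), alpha-fetoprotein (Afp), transthyretin (Ttr), transferrin (Trf), fetuin-A (Ahsg), the 3 fibrinogen chains (Fga, Fgb and Fgg), haptoglobin (Hp) and hemopexin (Hpx). They were chosen by the gene name printed in the scanner files, and the rule uses no measured value. They are 10 of 30214 gene names on the array, with 12 of its 39429 probes. The arrays held RNA from AML12 cells, a mouse hepatocyte line that was derived from a mouse carrying a transforming growth factor alpha transgene. The cells carried a doxycycline-inducible scramble shRNA or, as the methods name the target of the arm that the labels call only "shrna", an eIF6 shRNA. eIF6 binds the large ribosomal subunit and acts in the initiation of translation. All cells received doxycycline and then insulin for 1 hour, which 1 label gives as 100 nM and another as 100 mM. All were also grown with dexamethasone and with a supplement of insulin, transferrin and selenium. No array of cells without insulin was analysed here. Each lysate was separated on a sucrose gradient into subpolysomal RNA, from the lighter fractions, and polysomal RNA, from the heavier fractions that hold mRNAs carrying several ribosomes. The 4 groups were scramble subpolysomal, scramble polysomal, eIF6 shRNA subpolysomal and eIF6 shRNA polysomal, with 4 arrays each.

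Hepatocytes translate plasma protein mRNAs on the endoplasmic reticulum, to which a signal peptide on the nascent chain directs the ribosome. Albumin carries fatty acids and hormones and sustains the osmotic pressure of plasma. Alpha-fetoprotein is its fetal relative and is silenced after birth. Transthyretin carries thyroxine and the retinol-binding protein, transferrin carries iron, haptoglobin captures free haemoglobin, and hemopexin captures free haem. Fibrinogen is the precursor of the clot, and fetuin-A binds calcium phosphate. Haptoglobin, hemopexin and fibrinogen are acute-phase proteins that rise in inflammation, whereas albumin, transthyretin, transferrin and fetuin-A fall.

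Detection separated the genes before any comparison. A probe was counted as detected on an array where the scanner software marked it as well above background. The probes of Afp, Ttr, Hp and Hpx, and both probes of Trf, were detected on all 4 arrays of every group. The probe of Alb was detected on 0 of 4 scramble subpolysomal arrays, 3 of 4 scramble polysomal arrays, 2 of 4 eIF6 shRNA subpolysomal arrays and 2 of 4 eIF6 shRNA polysomal arrays. The probe of Ahsg was detected on 0, 1, 1 and 1 arrays of the same groups in that order, and 1 of the 2 probes of Fga gave the same counts. The other probe of Fga and the probes of Fgb and Fgg were detected on no array. In scramble subpolysomal RNA 5 genes were thus detected on all 4 arrays and 5 on none, and in each of the other groups 5 were detected on all arrays, 3 on some and 2 on none. No group detected fetuin-A or any fibrinogen chain on more than 1 array.

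**Figure D1:**
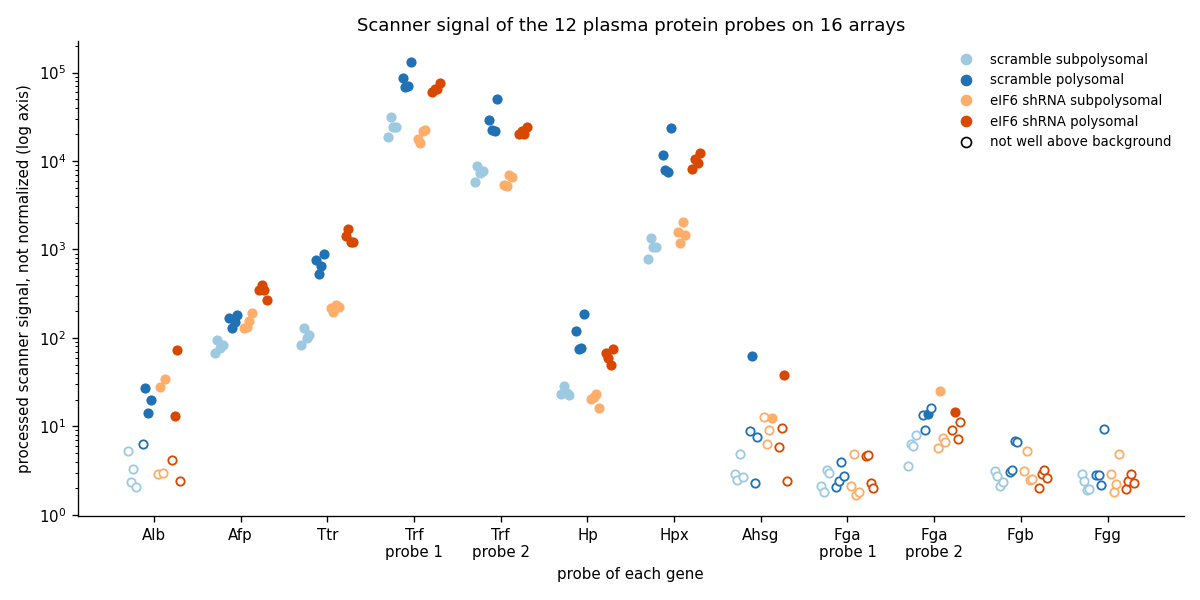
Processed scanner signal of the 12 probes on the 16 arrays (log axis, not normalized between arrays), coloured by group, with open points where the probe was not well above background. Probes of Afp, Ttr, Trf, Hp and Hpx are filled throughout, whereas Alb is filled on 7 of 16 arrays and Fgb and Fgg on none.

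Scanner signals, which are comparable between arrays only roughly because they are not normalized, show how far these probes lay from background. Signals of the Trf probes ran from 16000 to 131000 and from 5200 to 50800, and that of Hpx from 787 to 23900. The signals of Ttr (84.2 to 1700), Afp (67.5 to 396) and Hp (16 to 188) were lower, and those of Fgb (2.03 to 6.91) and Fgg (1.8 to 9.43) stayed near the floor. A probe's brightness depends on its own sequence, so these ranges do not rank the mRNAs. No spot was saturated.

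The Alb probe was bright on some arrays and dark on others of the same group. Its signals were 5.24, 2.36, 3.31 and 2.04 in scramble subpolysomal RNA and 6.39, 27.2, 14.2 and 20 in scramble polysomal RNA, in the order of the replicate numbers. In eIF6 shRNA cells they were 2.9, 27.9, 3 and 34.1 in subpolysomal RNA and 4.15, 13.2, 73.2 and 2.39 in polysomal RNA. High and low arrays thus occurred in both eIF6 shRNA groups. Ahsg behaved likewise, with 62.3 on 1 scramble polysomal array, 38.0 on 1 eIF6 shRNA polysomal array and at most 12.8 on any other array.

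Probe sequences show the bases that the array read for a gene. The 3 below are given for Alb, which was detected on 7 of 16 arrays, and for Hpx and Trf, which were detected on all 16. Each is a 60-base probe in the sense direction, at the mm9 position that the scanner files give.
Alb (A_51_P160713, chr5:90901598-90901657, plus strand): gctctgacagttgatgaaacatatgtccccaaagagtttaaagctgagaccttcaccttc
Hpx (A_51_P325836, chr7:112740304-112740363, minus strand): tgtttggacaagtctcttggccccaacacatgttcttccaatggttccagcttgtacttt
Trf (A_55_P2037585, chr9:103112826-103112885, minus strand): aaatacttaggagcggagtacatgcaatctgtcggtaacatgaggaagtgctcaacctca

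Several of these genes are neighbours. The probe of Afp lies at chr5:90937781-90937840 on the plus strand (mm9), next to Alb, its relative by gene duplication. The fibrinogen probes lie together on chromosome 3, with Fgg at chr3:82818825-82818884, Fga at chr3:82835678-82835737 and chr3:82837260-82837319, and Fgb, on the opposite strand, at chr3:82846334-82846393. Ahsg was read at chr16:22899415-22899474, Hp at chr8:112099045-112099104 and the other Trf probe at chr9:103111207-103111266. The annotation used here gives no exon boundaries for these positions.

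The upstream sequences of Alb and Afp are given because the 2 genes adjoin but differed in detection. Each is the 250 bases before the RefSeq start of the gene (GRCm38.p6), at chr5:90460620-90460869 for Alb and chr5:90490464-90490713 for Afp, both on the plus strand. Capitals mark GTTAAT, the core of a motif known from promoters of liver genes.
Alb: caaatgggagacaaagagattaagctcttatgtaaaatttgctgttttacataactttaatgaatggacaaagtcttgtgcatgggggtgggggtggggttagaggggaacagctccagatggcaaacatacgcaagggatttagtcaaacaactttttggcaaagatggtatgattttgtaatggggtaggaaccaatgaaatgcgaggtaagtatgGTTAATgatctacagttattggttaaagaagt
Afp: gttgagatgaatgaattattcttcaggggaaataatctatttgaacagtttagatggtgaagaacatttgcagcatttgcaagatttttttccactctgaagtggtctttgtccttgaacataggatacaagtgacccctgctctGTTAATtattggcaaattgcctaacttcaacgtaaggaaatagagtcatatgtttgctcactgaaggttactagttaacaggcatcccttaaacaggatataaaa

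Of the 10 genes, 7 had a promoter in the RefSeq table, namely Alb, Afp, Hpx, Ahsg, Fga, Fgb and Fgg. GTTAAT or its reverse complement ATTAAC occurred in 4 of these 7 (Alb, Afp, Fga and Fgb) and in 6.44% of 32817 promoter windows of the same length. TATAAA, searched on both strands, occurred in Afp alone among the 7 and in 12.4% of all windows. CCAAT occurred in Alb, Afp and Hpx and in 33.8% of all windows. No match of 1 motif overlapped a match of another in Alb or Afp. GTTAAT and CCAAT thus occurred both in genes that were well detected and in genes that were not, and TATAAA only in Afp. Whether the letters bear on detection was not tested.

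Cell type markers were examined because the line is described as hepatocytes. Of 12 hepatocyte markers on the array, 7 were detected on all 16 arrays (Apoa2, Apob, Apoe, Hnf4a, Krt8, Krt18 and Tat), while Apoa1 was detected on 2 arrays and Pck1 on 1. Of 8 fibroblast or stellate cell markers 6 were detected on all arrays, and Lrat, which marks quiescent stellate cells, on none. All arrays also detected 5 of 6 cholangiocyte or progenitor markers, 2 of 5 macrophage markers and 2 of 5 endothelial markers, and the endothelial genes Cdh5, Stab2 and Tek were detected on no array. The target of the shRNA, Eif6, differed between eIF6 shRNA and scramble cells by -1.05 on the log2 scale in polysomal RNA (SE 0.079, adjusted p = 1.45e-07) and by 0.02 in subpolysomal RNA (SE 0.079, adjusted p = 0.917). Between 20177 and 24953 probes were detected per array, and arrays of a group correlated with Pearson's r of 0.9872 to 0.9951. The replicate 4 polysomal arrays of both shRNAs deviated together from their group means (r = 0.412 over genes). Counts of calls and several of the differences that rest on them are therefore also given without them.

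For the comparisons, log2 intensities were normalized so that all 16 arrays had the same distribution, and a gene was tested when at least 1 group detected a probe of it on at least 2 arrays. By this filter 6 of the 10 genes were tested, namely Alb, Afp, Ttr, Trf, Hp and Hpx. Ahsg, Fga, Fgb and Fgg failed the filter. A gene is called where its adjusted p is below 0.05 by limma with Benjamini-Hochberg adjustment over the 19365 genes tested. Levels below are normalized log2 signals, and differences are between log2 values. The 5 comparisons share the same 16 arrays, so their results for 1 gene are not independent. In extracts of whole cultures, fewer cells that express a gene and less of its mRNA per cell cannot be told apart.

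**Figure D2:**
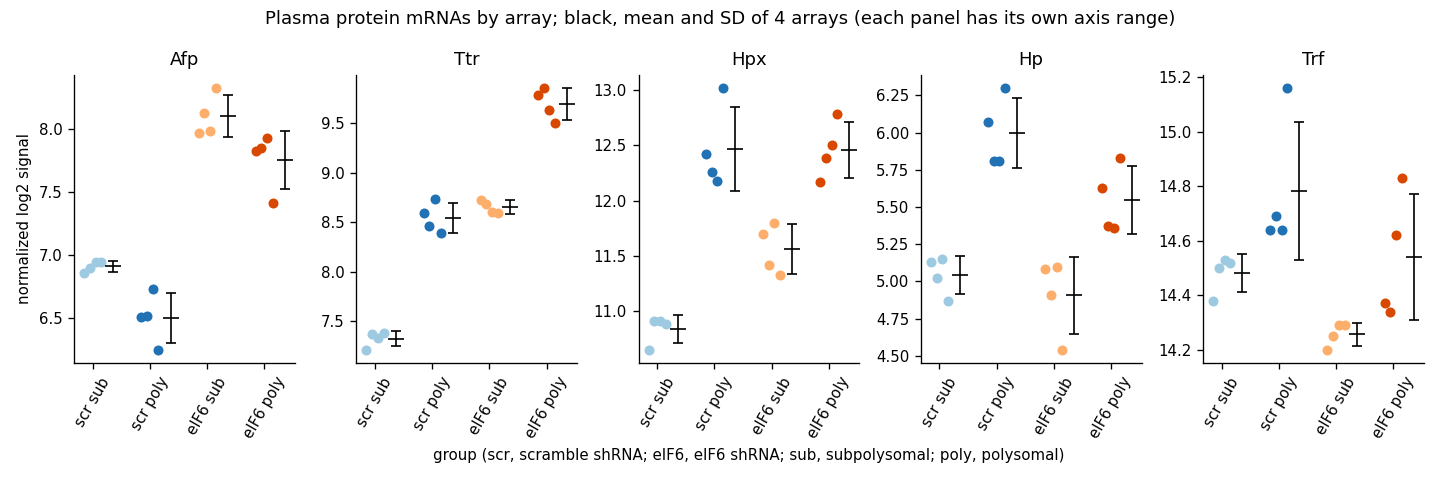
Normalized log2 signal of Afp, Ttr, Hpx, Hp and Trf on each array (coloured points, replicates 1 to 4 from left to right in each group) with the mean and SD of 4 arrays in black. Afp and Ttr are higher in both eIF6 shRNA groups than in the scramble group of the same fraction, without overlap.

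The first question was which plasma protein mRNAs differed between eIF6 shRNA and scramble cells on polysomes. Afp was 2.39-fold and Ttr 2.22-fold higher in eIF6 shRNA cells, Hp was 1.36-fold lower, and Trf, Hpx and Alb did not pass the test. Thus 3 of 6 genes were called, while 21.8% of all genes tested were called, and 2 of 6 were called higher, while 11.1% of all genes were. The median difference was -0.01 over the 5 genes detected on all arrays, and that of all genes was 0.0156.

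Afp was 6.51, 6.52, 6.73 and 6.25 on the scramble polysomal arrays and 7.83, 7.85, 7.93 and 7.42 on the eIF6 shRNA polysomal arrays. The lowest eIF6 shRNA array lay above the highest scramble array. The difference was 1.26 (SE 0.12, 95% interval 0.99 to 1.53, adjusted p = 2.58e-06), and the 4 slides, each of which held 1 array of every group, gave 0.92 to 1.6. The array carried 10 spots of the Afp probe, whose SD within an array was 0.04 to 0.1.

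Ttr was 8.59, 8.46, 8.74 and 8.39 on the scramble polysomal arrays and 9.79, 9.86, 9.64 and 9.5 on the eIF6 shRNA polysomal arrays. These groups did not overlap either. The difference was 1.15 (SE 0.098, 95% interval 0.94 to 1.36, adjusted p = 5.52e-07), with 0.9 to 1.48 within slides.

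Hp was 6.07, 5.81, 5.81 and 6.3 in scramble polysomal RNA and 5.63, 5.37, 5.36 and 5.83 in eIF6 shRNA polysomal RNA. The highest eIF6 shRNA array exceeded the 2 lowest scramble arrays, so the groups overlapped. The difference was -0.45 (SE 0.15, 95% interval -0.77 to -0.12, adjusted p = 0.0475), and Hp was lower in eIF6 shRNA cells within all 4 slides (-0.93 to -0.17). The call did not hold in 11 of the 16 fits that left out 1 array. Without scramble polysomal replicate 1 or 4, or eIF6 shRNA polysomal replicate 1, 2 or 3, the adjusted p was 0.0653 to 0.135. Without replicate 1, 2 or 3 of either subpolysomal group, arrays that enter this comparison only through the estimate of spread, it was 0.0518 to 0.0604. The call was also lost with the deposited log2 table (adjusted p = 0.0585) and without the detection filter (adjusted p = 0.097). With both replicate 4 polysomal arrays left out the difference was -0.44 and the adjusted p was 0.0485.

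Trf was 14.64, 14.69, 14.64 and 15.16 in scramble polysomal RNA against 14.37, 14.34, 14.62 and 14.83 in eIF6 shRNA polysomal RNA. Replicate 4 was the highest array of both groups. The difference of -0.25 (95% interval -0.51 to 0.02) did not pass the test (adjusted p = 0.203), and the 2 probes gave -0.24 and -0.25.

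Hpx was 12.42, 12.26, 12.18 and 13.02 in scramble polysomal RNA and 12.17, 12.39, 12.5 and 12.78 in eIF6 shRNA polysomal RNA. The 2 groups covered nearly the same range. The difference was -0.01 (SE 0.18, 95% interval -0.39 to 0.37, adjusted p = 0.983). Alb gave -0.29 (SE 1.0, adjusted p = 0.896) from a probe detected on 5 of these 8 arrays.

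**Figure D3:**
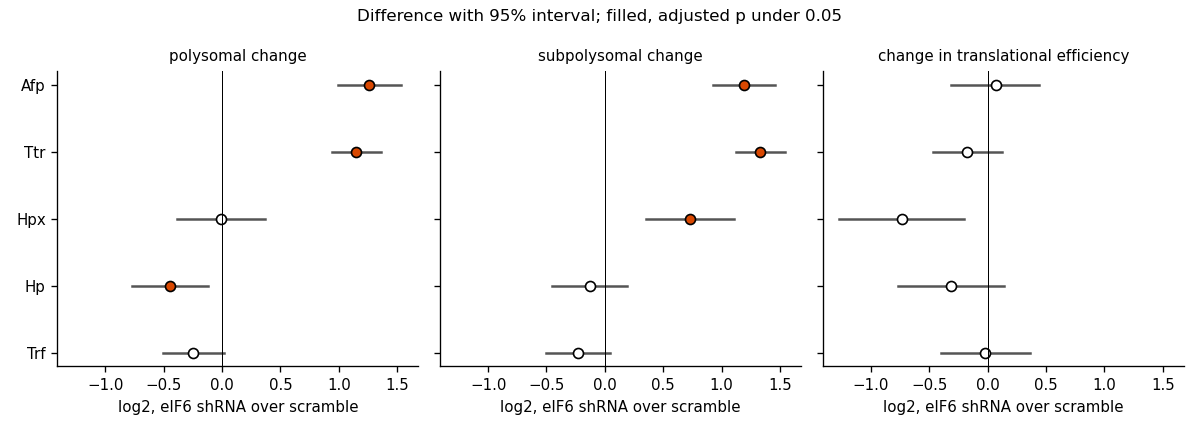
Log2 difference between eIF6 shRNA and scramble cells in polysomal RNA, in subpolysomal RNA and in the ratio of both, with 95% intervals from the fit, for the 5 genes detected on all 16 arrays. Filled points have an adjusted p below 0.05: Afp and Ttr in both fractions, Hp in polysomal and Hpx in subpolysomal RNA, and no gene in translational efficiency.

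Subpolysomal RNA was compared in the same way to see whether these differences were limited to polysomes. Afp was 2.29-fold, Ttr 2.51-fold and Hpx 1.65-fold higher in eIF6 shRNA cells, and no plasma protein gene was called lower. Here 3 of 6 genes were called, all of them higher, against 24.2% of all genes called in either direction and 11.8% called higher. The median difference was 0.73 over the 5 genes detected on all arrays, beside 0.0248 for all genes.

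Afp rose from 6.86, 6.9, 6.95 and 6.95 on the scramble arrays to 7.97, 8.13, 7.99 and 8.33 on the eIF6 shRNA arrays, a difference of 1.19 (SE 0.12, adjusted p = 6.33e-06). Ttr rose from 7.21, 7.37, 7.33 and 7.38 to 8.73, 8.69, 8.6 and 8.59, a difference of 1.33 (SE 0.098, adjusted p = 2e-07). Neither gene overlapped between the groups, and within slides the differences were 1.04 to 1.47 for Afp and 1.27 to 1.38 for Ttr.

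Hpx rose from 10.65, 10.91, 10.91 and 10.88 to 11.7, 11.42, 11.8 and 11.33. The difference was 0.73 (SE 0.18, 95% interval 0.35 to 1.11, adjusted p = 0.00798), and the groups did not overlap. Within slides the difference was 0.54 to 0.89. Hpx thus passed the test in subpolysomal RNA, where its polysomal difference was near 0.

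Trf was 14.38, 14.5, 14.53 and 14.52 in scramble and 14.2, 14.25, 14.29 and 14.29 in eIF6 shRNA subpolysomal RNA. The groups did not overlap, yet the difference of -0.23 (95% interval -0.5 to 0.04) did not pass the test (adjusted p = 0.211), which uses 1 estimate of the spread from all 4 groups. With both replicate 4 polysomal arrays left out, which narrows that estimate, the same difference had an adjusted p of 0.0249. Hp differed by -0.13 (95% interval -0.45 to 0.19, adjusted p = 0.582), with 5.13, 5.02, 5.15 and 4.87 in scramble and 5.08, 4.91, 5.1 and 4.54 in eIF6 shRNA cells.

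Alb was detected on no scramble subpolysomal array, where only the floor set by the lowest detected probes (3.43) could stand for it. Its mean in eIF6 shRNA subpolysomal RNA, 3.91, was 1.4-fold that floor, but 2 of those 4 arrays did not detect it. In scramble polysomal RNA, where 3 of 4 arrays detected it, the mean of 3.3 lay below the floor (0.918-fold). No bound is therefore drawn. For the subpolysomal difference the fit gave an adjusted p of 0.198.

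The study asks which mRNAs depend on eIF6 for their translation, which the ratio of polysomal to subpolysomal signal addresses. The change in this ratio between eIF6 shRNA and scramble cells, called the change in translational efficiency here, passed the test for 0 of the 6 genes. Over all genes 1.51% were called, and 2421 had an unadjusted p below 0.05. Of the plasma protein genes Hpx alone had an unadjusted p below 0.05.

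For Hpx the ratio was 1.63 in scramble and 0.9 in eIF6 shRNA cells, a difference of -0.73 (SE 0.25, 95% interval -1.27 to -0.2, unadjusted p = 0.011, adjusted p = 0.206). It was below 0 on all 4 slides (-1.52 to -0.42). Leaving out 1 array at a time gave -0.842 to -0.551 and adjusted p-values of 0.136 to 0.344. With both replicate 4 polysomal arrays left out the difference was -0.658 (adjusted p = 0.107). The difference therefore did not pass the test in any of these fits, although its own interval excludes 0.

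Afp and Ttr, the genes that rose most, changed by similar amounts in both fractions. The difference in the ratio was 0.07 for Afp (95% interval -0.31 to 0.44) and -0.18 for Ttr (95% interval -0.47 to 0.12). It was -0.31 for Hp (95% interval -0.77 to 0.14) and -0.02 for Trf (95% interval -0.4 to 0.36). The adjusted p of these 4 genes was between 0.607 and 0.986. Alb gave -2.19 with a SE of 1.4 and an adjusted p of 0.589.

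The distribution of each mRNA between the fractions was then compared within scramble cells and within eIF6 shRNA cells. In scramble cells Hpx was 3.1-fold, Ttr 2.33-fold and Hp 1.94-fold higher in polysomal than in subpolysomal RNA, and Afp was 1.33-fold lower. In eIF6 shRNA cells Ttr was 2.06-fold, Hpx 1.86-fold and Hp 1.56-fold higher, and Afp 1.27-fold lower. In both, 4 of 6 genes were called, 3 of them higher. Of all genes 60.1% were called in scramble cells and 60.8% in eIF6 shRNA cells, with 31.7% and 32.1% called higher.

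Hpx gave 1.63 (SE 0.18, adjusted p = 1.73e-06) in scramble and 0.9 (adjusted p = 0.000505) in eIF6 shRNA cells. Ttr gave 1.22 (SE 0.098, adjusted p = 7.35e-08) and 1.04 (adjusted p = 4.21e-07), and Hp gave 0.95 (SE 0.15, adjusted p = 6.64e-05) and 0.64 (adjusted p = 0.00192). The polysomal and subpolysomal arrays of these 3 genes did not overlap for either shRNA, as the plot of levels by array shows. The same held for Afp, called lower on polysomes, and for Trf, which was not called. How many of all genes separated in this way was not counted, so the separation is not read as particular to these genes. Afp gave -0.42 (SE 0.12, adjusted p = 0.00987) and -0.35 (adjusted p = 0.0253). The latter call was lost without eIF6 shRNA subpolysomal replicate 2 (adjusted p = 0.0522) or 4 (0.0841) and without eIF6 shRNA polysomal replicate 4 (0.0833). With the replicate 4 polysomal arrays of both shRNAs left out it was kept (-0.237, adjusted p = 0.0403).

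Trf lay just outside the threshold in both, with 0.3 (95% interval 0.03 to 0.57, adjusted p = 0.0529) in scramble and 0.28 (95% interval 0.01 to 0.55, adjusted p = 0.0645) in eIF6 shRNA cells. Its 2 probes differed here, with 0.41 and 0.18 in scramble cells and 0.45 and 0.12 in eIF6 shRNA cells. Without replicate 4 of the polysomal arrays of both shRNAs the gene gave 0.173 and 0.186, with adjusted p-values of 0.0617 and 0.0465. Of 11 other settings that kept all arrays, 5 called Trf in scramble and 4 in eIF6 shRNA cells, while 6 and 7 did not. The brightest probe alone, for example, gave adjusted p-values of 0.0224 and 0.0152. Among the 16 fits without 1 array, 4 and 3 called it.

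These distributions are relative to the other mRNAs, because the normalization gives both fractions the same overall signal. Before normalization the polysomal arrays were brighter, and Afp signals ran from 128 to 180 in scramble polysomal and from 67.5 to 93.9 in scramble subpolysomal RNA. Scaled to spike-in probes, the median gene was 1.522 higher in polysomal RNA of scramble cells, and Afp was then 1.06 higher (adjusted p = 0.0501), which is -0.47 relative to that median. When the fractions were normalized separately the median gene was 1.384 higher and Afp 0.94 higher (adjusted p = 7.18e-06), or -0.45 relative to the median. Scaled to the 75th percentile the median was -0.338 and Afp was at -0.8. The direction of Afp thus depended on the scaling, whereas its place below the median gene did not under these 3 scalings. Spike-in and 75th-percentile scaling each shift all genes of an array alike. A gene's distance from the median gene therefore cannot differ between them, and only separate normalization of the fractions could move it.

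Hpx, Ttr, Trf and Hp lay above the median gene under the same 3 scalings in scramble cells, by 2 to 2.04 for Hpx, 1.3 to 1.34 for Ttr, 0.46 to 0.48 for Trf and 0.68 to 0.69 for Hp. In eIF6 shRNA cells Hpx lay 1.3 to 1.32 above it, Ttr 1.25 to 1.29, Trf 0.45 to 0.48 and Hp 0.26 to 0.28. Afp was at -0.25 to -0.21 relative to it. Between spike-in and 75th-percentile scaling these distances are equal by construction. Before the median was taken off, the 75th percentile placed Hp at 0.36 in scramble cells, where its call was lost (adjusted p = 0.0652), and at -0.11 in eIF6 shRNA cells (adjusted p = 0.557). Over all genes the split of calls moved with the scaling as well, from 6133 higher and 5498 lower in scramble cells to 15786 and 899 with separate normalization of the fractions, 13412 and 396 with spike-in probes, and 4111 and 8478 with the 75th percentile. In eIF6 shRNA cells the main split of 6224 and 5553 became 15406 and 840, 11224 and 494, and 3987 and 8913.

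**Figure D4:**
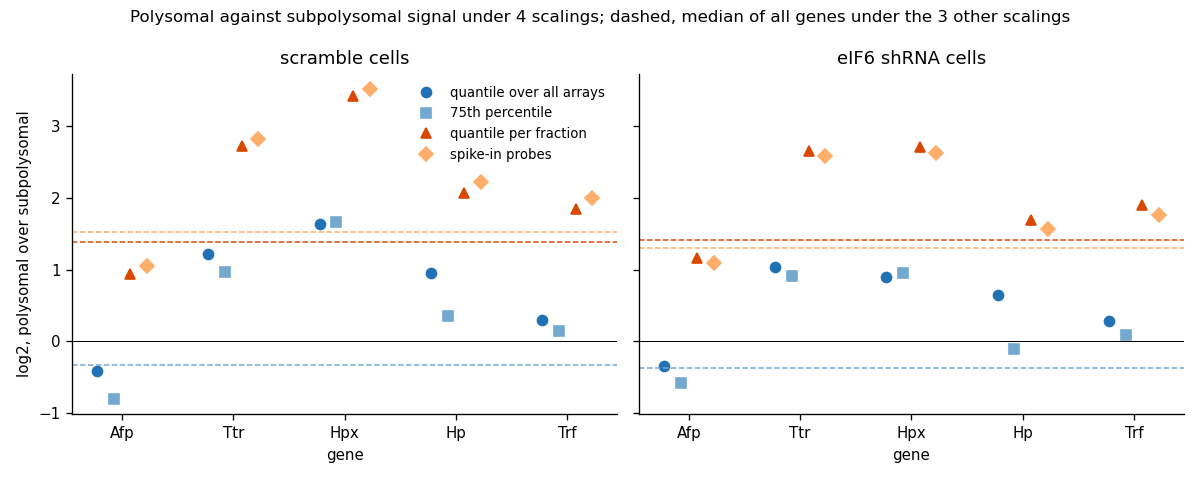
Polysomal over subpolysomal signal (log2 ratio) of 5 genes in scramble and eIF6 shRNA cells under 4 scalings, with the median of all genes under the 3 alternative scalings dashed in the same colour. The points of a gene shift with the dashed lines, and Afp stays below its line while the other genes stay above theirs.

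The same scalings were applied to the shRNA comparisons. Spike-in scaling placed the difference of the median gene between eIF6 shRNA and scramble cells at -0.474 in polysomal and -0.227 in subpolysomal RNA, and no plasma protein gene was called in either. Afp was then 0.85 higher on polysomes (adjusted p = 0.532) and Ttr 0.73 higher (adjusted p = 0.611), which is 1.33 and 1.2 above the median gene. In subpolysomal RNA Afp lay 1.04, Ttr 1.19 and Hpx 0.67 above the median gene under this scaling. Under the 75th percentile and with separate normalization of the fractions, Afp, Ttr, Hp and Hpx kept their calls in the comparisons of the shRNAs.

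The levels of each gene can be ordered over the 4 groups, where the order between fractions holds for the common distribution given to all arrays. Afp ran from scramble polysomal (6.5 ± 0.2, SD, n = 4) through scramble subpolysomal (6.91 ± 0.04) and eIF6 shRNA polysomal (7.76 ± 0.23) to eIF6 shRNA subpolysomal RNA (8.11 ± 0.17), with no overlap between neighbours. Ttr ran from scramble subpolysomal (7.32 ± 0.08) through scramble polysomal (8.54 ± 0.16) and eIF6 shRNA subpolysomal (8.65 ± 0.07), which overlapped, to eIF6 shRNA polysomal RNA (9.7 ± 0.16). Hpx ran from scramble subpolysomal (10.84 ± 0.13) through eIF6 shRNA subpolysomal (11.56 ± 0.22) to eIF6 shRNA polysomal (12.46 ± 0.25) and scramble polysomal RNA (12.47 ± 0.38), the last 2 of which overlapped. Hp was lowest in the 2 subpolysomal groups, which overlapped (4.91 ± 0.26 and 5.04 ± 0.12), and Trf overlapped between eIF6 shRNA polysomal RNA (14.54 ± 0.23) and both scramble groups. With separate normalization of the fractions the order turned for Afp, whose polysomal level was then the higher by 0.94 in scramble and 1.17 in eIF6 shRNA cells. The middle groups of Ttr also changed place, since scramble polysomal RNA then lay 2.73 and eIF6 shRNA subpolysomal RNA 1.26 above scramble subpolysomal RNA.

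The 5 genes fell into different patterns over the 16 arrays. Pearson's r was 0.796 between Hp and Hpx, 0.78 between Trf and Hp, 0.762 between Ttr and Hpx, and 0.503 between Afp and Ttr, whereas Afp and Trf gave -0.72. These values describe arrays of 4 groups and mostly follow the group means. By the same measure, among 14562 other genes detected on all arrays, the patterns closest to Ttr were those of Fam210b (r = 0.995) and Ecscr (0.992), and those closest to Afp were Lonrf3 (0.987) and A930038B10Rik (0.985). Closest to Hpx were NAP102430-1, a name specific to the array (0.988), and Ndufaf7 (0.984). For Trf they were Slc39a6 (0.958) and Trpa1 (0.957), and for Hp Drg1 (0.959) and Psmd6 (0.957).

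Replicate 4 of the polysomal arrays carried the highest Hpx, Hp and Trf and the lowest Afp and Ttr of its group for both shRNAs. Without these 2 arrays the polysomal comparison still called 3 genes, the subpolysomal comparison called 4 (Trf being added), translational efficiency called 0, and the comparisons of fractions called 4 in scramble and 5 in eIF6 shRNA cells. Afp and Ttr then differed on polysomes by 1.29 (adjusted p = 1.51e-06) and 1.17 (adjusted p = 1.87e-06). Between the fractions Hpx then gave 1.447 in scramble and 0.79 in eIF6 shRNA cells, and Hp 0.853 and 0.545. Afp gave -0.331 in scramble cells.

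Other plasma proteins of the liver were measured for 43 of 58 listed genes on the array. On polysomes 8 were called higher and 7 lower in eIF6 shRNA cells (34.9%, beside 21.8% of all genes), with a median difference of 0.02. In subpolysomal RNA 8 were called higher and 4 lower (27.9%, beside 24.2%). Under spike-in scaling the counts were 1 higher and 5 lower on polysomes, and 0 higher and 1 lower in subpolysomal RNA. Higher on polysomes were Cp, which encodes the copper-carrying ferroxidase ceruloplasmin (1.23, SE 0.17, adjusted p = 6.25e-05), Gc, the vitamin D-binding protein and a relative of Alb and Afp (0.81, SE 0.18, adjusted p = 0.00345), and the complement component C3 (0.45, SE 0.15, adjusted p = 0.0416). Cp and Gc were also higher in subpolysomal RNA, by 1.05 and 0.86.

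The genes of this list that fell most on polysomes were Fetub (-2.24, SE 0.19, adjusted p = 7e-07), Serpinf1 (-1.91, SE 0.15, adjusted p = 1.85e-07) and the complement protease C1s (-1.75, SE 0.15, adjusted p = 8.05e-07). Fetub encodes fetuin-B, the relative of the fetuin-A gene Ahsg, and Serpinf1 a secreted serpin that inhibits vessel growth. In translational efficiency 4 of the 43 genes were called (9.3%, beside 1.51% of all genes), and 0 under spike-in scaling. Of those detected on all arrays, Serpinf1 (-1.98), Fetub (-1.87) and Ambp (-1.63), the precursor of alpha-1-microglobulin and bikunin, were lower. The remaining one, Serpina3n, was detected on 2 of 16 arrays and passed the filter through 1 group alone, so its size is not given. It was named after its value was seen. No test compared this list with the 10 genes.

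Of 25 genes for signal peptide recognition and translocation into the endoplasmic reticulum, which serve all these proteins, 2 were called lower on polysomes and none higher (8%, beside 21.8% of all genes). Without 1 array the count lower was 1 to 3, and it was 0 under spike-in scaling. The 2 genes were Spcs3, a subunit of the signal peptidase (-0.44, SE 0.12, adjusted p = 0.0123), and Srpr, a subunit of the receptor for the signal recognition particle (-0.38, SE 0.12, adjusted p = 0.0404). In subpolysomal RNA 1 was called higher and 3 lower. Ssr4, of the translocon-associated complex, was the 1 gene called in translational efficiency (-0.6, SE 0.13, adjusted p = 0.0291). No gene of the list was called there in 9 of the 16 fits without 1 array. The same held with the replicate as a block, with a replicate block within each shRNA and under spike-in scaling. The median difference on polysomes was -0.12.

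Among 24 regulators of plasma protein genes, 4 were called higher and 3 lower on polysomes (29.2%, beside 21.8% of all genes), and 0 under spike-in scaling. Cebpa, a transcription factor that activates many hepatocyte genes, was higher by 0.86 (SE 0.13, adjusted p = 0.000156) on polysomes and by 1.2 in subpolysomal RNA. The cytokine receptor kinase Jak2 was higher by 0.59 (adjusted p = 0.000243). Lower were Cebpd, a factor of the acute-phase response (-0.95, SE 0.11, adjusted p = 1.88e-05), the nuclear receptor Nr2f1 (-0.5, adjusted p = 0.000477) and Socs3, an inhibitor of cytokine signalling (-0.38, adjusted p = 0.0065). Cebpd was also the 1 regulator called in translational efficiency (-0.78, SE 0.16, adjusted p = 0.027). That count was 0 in 9 of the 16 fits without 1 array, with a replicate block within each shRNA and under spike-in scaling.

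Of 12 receptors and clearance partners of plasma proteins tested, 2 were called higher and 2 lower on polysomes (33.3%, beside 21.8% of all genes). Without 1 array the count higher was 1 to 2, and spike-in scaling gave 0 higher and 1 lower. Stra6, the receptor for retinol-binding protein, which travels with transthyretin, was higher by 1.52 (SE 0.14, adjusted p = 1.7e-06), and Tfr2, a transferrin receptor, by 0.6 (SE 0.2, adjusted p = 0.0456). Fcgrt, which encodes the receptor that returns albumin and antibodies from endosomes, was lower (-1.19, SE 0.15, adjusted p = 2.5e-05) and was also called in translational efficiency (-1.28, adjusted p = 0.00564), where the list had 0 calls with a replicate block within each shRNA and under spike-in scaling. Cubn, an endocytic receptor that takes up albumin and transferrin, was lower (-0.48, SE 0.087, adjusted p = 0.000814).

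Markers of another cell type also differed between the shRNAs, and they were lower where Afp and Ttr were higher. Of 7 fibroblast or stellate cell markers tested, 6 were called lower on polysomes and 5 in subpolysomal RNA of eIF6 shRNA cells. None was called higher. Of all 19365 genes tested, 2072 were called lower on polysomes and 2390 in subpolysomal RNA. The summed normalized signal of the fibroblast or stellate cell markers (linear scale) was 162000 to 276000 on scramble and 27100 to 44000 on eIF6 shRNA polysomal arrays. In subpolysomal RNA it was 132000 to 141000 against 59800 to 74100. Of 11 hepatocyte markers tested, 1 was called higher on polysomes and none in subpolysomal RNA, beside 11.1% and 11.8% of all genes called higher. Their summed signal was 314000 to 478000 on scramble and 353000 to 495000 on eIF6 shRNA polysomal arrays. Of 6 cholangiocyte or progenitor markers tested, 1 was called higher in each fraction. Of 4 macrophage markers 1 was called lower in each fraction, and of 2 endothelial markers none was called. The part of these differences in the results for Afp, Ttr and Hpx was not tested.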

How the data were processed

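RNA from polysomal and subpolysomal fractions of AML12 cells was measured on 16 one-colour Agilent arrays. The authors deposited for each array the processed intensity per spot, corrected for background by Feature Extraction (10.7.3.1, per the file headers) and not normalized, and a table of log2 values that they had quantile normalized. Flagged spots were left out (82 missing probe values), and spots of a probe were averaged. Probes that at least 1 group detected on at least 2 arrays were kept (25260), quantile normalized and averaged per gene name. Group means were fitted with limma 3.58.1 (R 4.3.3) to 19365 genes, adjusted by Benjamini-Hochberg (threshold 0.05). The methods state biological replicates. The number of arrays limits the precision.

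The genes and lists were chosen with earlier results of these data known. From each list, up to 3 genes called lower and 3 called higher with the largest polysomal difference, and those called in translational efficiency, are named if detected on all arrays, as are Eif6 and the 2 genes closest to each detected member over the arrays. One gene that this rule names is not reported here. Alternatives covered scaling, background, filter, probe choice, the deposited log2 table (r of 0.9936 to 0.9999 with the log2 intensities), slide and replicate as blocks, and leaving out each array.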

Additional observations from a re-analysis of the deposited data

Results flagged for a closer look

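In 24 groups of 4 arrays, the highest or lowest array stood apart from the other 3 by a gap over Dixon's 95% critical value in 2 cases, and chance alone gives this in about 1 group in 20. Trf was 15.16 on scramble polysomal replicate 4 and 14.64 to 14.69 on the other arrays of the group, a gap of 0.901 of the range. Hpx was 10.65 on scramble subpolysomal replicate 1 and 10.88 to 10.91 on the others, a gap of 0.866 of the range.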

How the results depend on the processing

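Afp and Ttr kept their higher polysomal and subpolysomal calls in every fit except spike-in scaling, where the members called were 0 in polysomal and 0 in subpolysomal RNA instead of 3 and 3; leaving out 1 array gave 2 to 3 and 3 to 3. The fractions compared within scramble cells gave 4 to 5 calls and within eIF6 shRNA cells 3 to 5 without 1 array, and translational efficiency gave 0 to 0. Signs turned mostly for values near 0. With normexp correction, translational efficiency was -0.019 for Afp and 0.019 for Ttr, and the polysomal difference 0.068 for Alb and 0.009 for Hpx. Scaling to the 75th percentile gave 0.002 for Hpx on polysomes and -0.111 for the fractions of Hp in eIF6 shRNA cells. For the fractions, normalizing each on its own gave 0.936 (scramble) and 1.167 (eIF6 shRNA) for Afp and 0.038 for Alb (eIF6 shRNA), and spike-in probes gave 1.056 and 1.094 for Afp. Translational efficiency of Trf was 0.055 with each fraction on its own and 0.031 with the brightest probe. Without 1 array, translational efficiency was -0.018 to 0.178 for Afp and -0.113 to 0.109 for Trf, and the polysomal difference -1.245 to 0.271 for Alb and -0.115 to 0.175 for Hpx. Without both replicate 4 polysomal arrays, a setting chosen after seeing the data, it was 0.261 for Alb, 0.069 for Hpx and, in translational efficiency, 0.012 for Trf. The causes were not tested.

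Replicate numbers did not pair the samples: deviations of same-numbered fractions correlated by -0.157 to 0.03 and those of same-numbered shRNAs by -0.103 to 0.412, and 1 of 16 arrays matched best with its own number. With the replicate block 2 genes were called on polysomes (Hp -0.446, adjusted p = 0.0701), 3 in subpolysomal RNA, 0 in translational efficiency and 5 and 5 between fractions. A block within each shRNA gave 0 in translational efficiency, 4 in scramble and 3 in eIF6 shRNA cells. Slide as a block changed no call. Over all genes, the 292 calls in translational efficiency became 465 (75th percentile), 33 (spike-in), 470 (each fraction on its own), 567 (normexp) and 129 (block within each shRNA). Spike-in scaling gave 1157 polysomal calls (101 higher) where the fit above gave 4216 (2144 higher), and 388 subpolysomal calls (43 higher) where it gave 4684 (2294 higher). Ahsg, Fga, Fgb and Fgg entered only without the detection filter, where signal over background limits any difference.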
